A study of Mus musculus with 24 samples.

Results

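The inter-alpha-trypsin inhibitor family was followed through the RNA of embryonic mouse livers in which chromatin remodelers had been deleted from endothelial cells. The 6 genes *Itih1*, *Itih2*, *Itih3*, *Itih4*, *Itih5* and *Ambp* were taken by name from the 25361 genes measured, and all 6 were found. The members were chosen by the fold changes of *Itih4* in non-endothelial cells, where it was higher in all 3 mutants than in controls, so the members' values in those comparisons are given as a description without a test. The other comparisons of the members were tested, and ratios within a library are descriptions.

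*Ambp* encodes a precursor that is cut into α1-microglobulin, a lipocalin that binds heme, and bikunin, a Kunitz-type inhibitor of trypsin and plasmin. In plasma, bikunin carries a chondroitin sulfate chain to which the heavy chains encoded by *Itih1*, *Itih2* and *Itih3* are bound as esters. The enzyme TSG-6 moves these heavy chains onto hyaluronan, which stabilizes hyaluronan-rich matrix. *Itih4* encodes a related protein without the bikunin link that is cut by plasma kallikrein and is known as an acute phase protein, and *Itih5* is a relative that many tissues express. Hepatocytes and their fetal precursors, the hepatoblasts, are the main source of the plasma forms.

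The study made 24 RNA libraries from livers of E12.5 embryos, 3 for each combination of 2 cell fractions and 4 genotypes. Cells bound by CD146 beads formed the liver sinusoidal endothelial cell (LSEC) fraction, and the remaining cells formed the non-endothelial (non-EC) fraction. Controls were littermates without Cre. *Chd4-ECko* embryos were Chd4fl/fl;Brg1fl/+;VE-cadherin-Cre+, *Brg1-ECko* embryos were Chd4fl/+;Brg1fl/fl;VE-cadherin-Cre+ and *Brg1/Chd4-ECdko* embryos were Chd4fl/fl;Brg1fl/fl;VE-cadherin-Cre+, so both of the first 2 mutants also carried 1 floxed allele of the other gene. VE-cadherin-Cre is active in endothelium and in some blood cells, and inhibitors of transcription and translation were present during digestion in every group. Values are TPM, transcript levels that are scaled to gene length and to the same total in every library, so levels of different genes can be compared but the number of reads behind a value is unknown. The labels do not say whether equal replicate numbers mark a litter. Sets of 3 values for the mutants follow the order *Chd4-ECko*, then *Brg1-ECko*, then *Brg1/Chd4-ECdko*.

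The 16 hepatoblast markers that were fixed for this work, among them *Afp* and *Alb*, summed to 21078 to 46516 TPM in non-EC libraries and to 4252 to 34465 TPM in LSEC libraries. Endothelial markers summed to 999 to 2151 TPM in LSEC and to 30.5 to 73.9 TPM in non-EC libraries. Both fractions are mixtures, with erythroid markers at 2010.3 to 11630 TPM in non-EC libraries. In LSEC libraries mesenchymal markers summed to 1429 to 2402 TPM (62.7 to 226 TPM in non-EC) and macrophage markers to 647 to 1461 TPM. LSEC values are therefore not those of endothelial cells alone. Replicate 1 of the *Brg1-ECko* LSECs stood apart, with the highest hepatoblast sum (34465 TPM, against 4252 to 9955 TPM in the other LSEC libraries) and the lowest endothelial sum (999 TPM). Endothelial sums were wholly lower in all 3 *Brg1-ECko* LSEC libraries (999 to 1616 TPM) than in control LSECs (1621 to 2151 TPM), and the part of this in the LSEC results was not tested. Whole-gene values of the targeted genes overlapped between control and mutant LSECs. *Chd4* was at 168 to 252 TPM in *Chd4-ECko* and 246 to 285 TPM in control LSECs, and *Smarca4*, which encodes BRG1, was at 111 to 157 TPM in *Brg1-ECko* and 134 to 161 TPM in control LSECs. In *Brg1/Chd4-ECdko* LSECs the values were 242 to 256 TPM for *Chd4* and 117 to 151 TPM for *Smarca4*. In non-EC cells, *Smarca4* was at 162 to 169 TPM in *Brg1/Chd4-ECdko* and 161 to 174 TPM in *Chd4-ECko*, below controls at 183 to 189 TPM. Deletion of floxed exons need not lower a value for the whole gene.

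The family sits at 3 loci (GRCm39, GENCODE vM39). *Itih4* (chr14:30608378-30624310, forward strand), *Itih3* (chr14:30630529-30645722, reverse strand) and *Itih1* (chr14:30649858-30665251, reverse strand) follow each other within 56.874 kb, with 6218 bases between *Itih4* and *Itih3* and 4135 bases between *Itih3* and *Itih1*. *Itih2* (chr2:10098610-10138354, reverse strand) and *Itih5* (chr2:10158281-10261340, forward strand) lie 19926 bases apart and point away from each other. *Ambp* lies alone at chr4:63061512-63073036 on the reverse strand.

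The sequences before the starts of *Itih4* and *Itih1* are shown because these genes bound the same cluster and held the largest and the smallest non-EC difference from control of its 3 members. They are the RefSeq windows that end at the gene start in GRCm38.p6, placed by an exact match in GRCm39, and the GENCODE gene begins 55 bases before the RefSeq start of *Itih4* and 5 bases before that of *Itih1*. The *Itih4* window was shortened to end 20 bases inside the GENCODE gene and covers chr14:30608183-30608397 on the forward strand. The *Itih1* window covers chr14:30665247-30665496 on the reverse strand. Capitals mark letters that match a motif.
Itih4: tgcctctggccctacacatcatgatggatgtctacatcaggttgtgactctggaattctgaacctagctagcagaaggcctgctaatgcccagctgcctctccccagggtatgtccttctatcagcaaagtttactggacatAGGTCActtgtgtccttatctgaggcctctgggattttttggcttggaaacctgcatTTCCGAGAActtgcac
Itih1: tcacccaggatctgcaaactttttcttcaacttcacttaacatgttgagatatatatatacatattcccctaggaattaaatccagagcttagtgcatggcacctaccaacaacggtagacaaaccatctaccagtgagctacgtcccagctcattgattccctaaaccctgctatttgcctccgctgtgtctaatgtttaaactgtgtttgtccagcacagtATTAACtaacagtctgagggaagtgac
The 250 bases before the start of each member were searched on both strands for 6 motifs. The STAT motif TTCNNNGAA was found only at *Itih4*, as TTCCGAGAA starting 51 bases before the RefSeq start, and 7.02% of 32851 promoter windows of this length hold it. The nuclear receptor motif AGGTCA (14.0% of windows) was found at *Itih4*, 108 bases before the start, and at *Ambp*. The HNF1 motif GTTAAT (6.43% of windows) was found at *Itih1*, where it reads ATTAAC on the gene's strand, and the C/EBP motif TTGCNNAA (9.56%) at *Itih2*. No member's window held the FOXA motif TGTTTAC (3.17%) or TATAAA (12.4%). These matches describe letters and are not evidence of binding. The windows of *Ambp* and *Itih2* lie wholly inside the gene as GENCODE annotates it. The STAT match at *Itih4* also lies inside the gene, which GENCODE begins 55 bases before the RefSeq start.

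In control livers the bikunin precursor and a single heavy chain made up nearly all of the family's RNA. In non-EC cells of controls, *Ambp* was at 820.5, 782 and 925 TPM (842 ± 74.3, SD, n = 3) and *Itih2* at 709, 603 and 748 TPM (687 ± 75.3). *Itih3* followed with 98.2 ± 11.5 TPM, *Itih1* with 44.3 ± 5.67 TPM, *Itih5* with 16.7 ± 2.03 TPM and *Itih4* with 15.7 ± 2.16 TPM. The libraries of *Ambp* and *Itih2* did not overlap, nor did those of any other neighbours in this order except *Itih5* and *Itih4*, whose ranges overlapped (15.1 to 19.0 and 14.0 to 18.2 TPM). Over the 12 non-EC libraries, *Itih2* made up 78.0% ± 2.34 (SD) of the TPM summed over the 5 *Itih* genes, *Itih3* 12.2% ± 1.45, *Itih1* 5.15% ± 0.677, *Itih4* 2.85% ± 0.838 and *Itih5* 1.78% ± 0.345. The summed heavy chains *Itih1*, *Itih2* and *Itih3* came to 0.984 ± 0.0439 of the *Ambp* level in control non-EC cells.

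**Figure D1:**
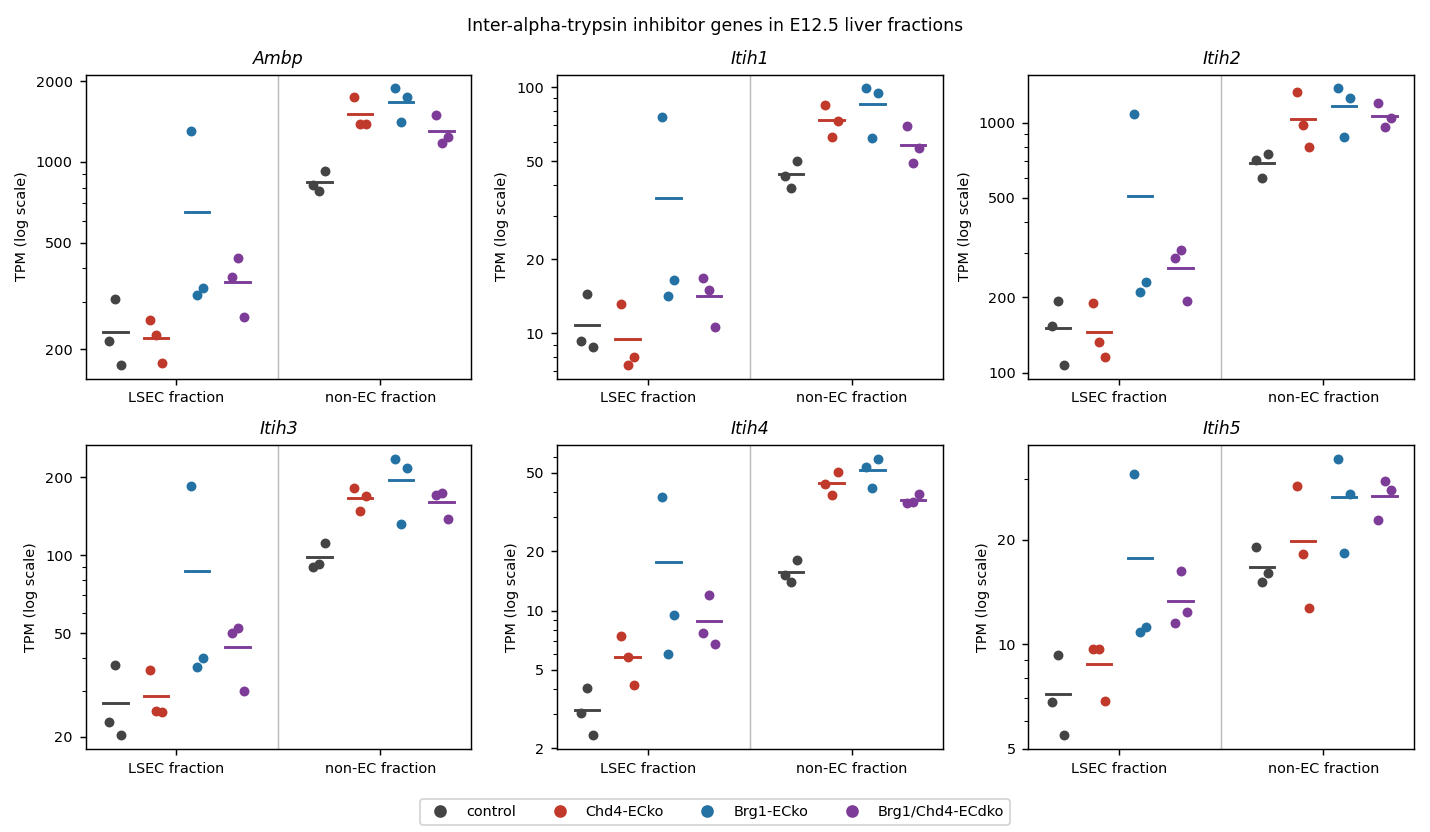
TPM of the 6 genes on log axes, with the LSEC fraction on the left and the non-EC fraction on the right of each panel. Points are libraries and bars are group means of 3, and *Itih4* in the non-EC fraction lies between 14.0 and 18.2 TPM in controls and between 35.1 and 58.9 TPM in mutants.

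All 6 genes were lower in control LSECs than in control non-EC cells. *Ambp* was at 214, 308 and 175 TPM in control LSECs, *Itih2* at 154, 194 and 108 TPM, and *Itih4* at 3.01, 4.04 and 2.32 TPM. None of the 6 genes overlapped between the fractions, where 40.2% of the 13775 genes tested lay wholly lower, and all 6 passed the test as lower (limma, adjusted p of 7.28e-05 to 0.00372), which 35.8% of genes did. The model did not pair LSEC and non-EC libraries of equal number, which may come from the same embryo. On the log2(TPM + 1) scale the difference ran from -2.21 ± 0.41 (SE) for *Itih2* to -1.13 ± 0.32 for *Itih5*. As a share of the non-EC level, the LSEC mean was 27.6% for *Ambp*, 27.4% for *Itih3*, 24.5% for *Itih1*, 22.1% for *Itih2*, 19.8% for *Itih4* and 43.1% for *Itih5*. The summed hepatoblast markers stood at 27.6% by the same measure, and their part in the LSEC values of the family was not tested. In bulk samples such as these, fewer cells of a type and less RNA per cell cannot be told apart.

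In non-EC cells of the mutants, *Itih4* stood further above control than any other member of the family. Control libraries held 15.1, 14.0 and 18.2 TPM of *Itih4*. *Chd4-ECko* libraries held 44.1, 38.7 and 50.4 TPM (44.4 ± 5.81, SD, n = 3), *Brg1-ECko* libraries 53.4, 42.0 and 58.9 TPM (51.4 ± 8.64), and *Brg1/Chd4-ECdko* libraries 35.1, 35.4 and 38.9 TPM (36.5 ± 2.08). Every mutant library was above every control library, and the lowest mutant value was in *Brg1/Chd4-ECdko*. The group means were 2.82, 3.27 and 2.32 times that of controls. On the log2(TPM + 1) scale the differences were 1.44, 1.64 and 1.17, each with an SE of 0.14, and they stayed between 1.09 and 1.78 when any library was left out. These are the values that led to the choice of the family and carry no test.

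The bikunin precursor and the heavy chains were also higher in non-EC cells of the mutants, by smaller factors. *Chd4-ECko* libraries held 1741, 1379.5 and 1391 TPM of *Ambp*, those of *Brg1-ECko* held 1882, 1408 and 1748 TPM and those of *Brg1/Chd4-ECdko* held 1499, 1177 and 1242 TPM, all above the highest control at 925 TPM. Its means were 1.79, 1.99 and 1.55 times control. *Itih2* means were 1.51, 1.70 and 1.55 times control, with mutant libraries at 801 to 1369 TPM above controls at 603 to 748 TPM. *Itih3* means were 1.69, 1.99 and 1.64 times control, with mutant libraries at 132 to 235 TPM and controls at 90.3 to 111 TPM. *Itih1* means were 1.66, 1.93 and 1.32 times control, and *Brg1/Chd4-ECdko* libraries, at 69.5, 49.3 and 56.6 TPM, overlapped with controls at 43.6, 39.0 and 50.2 TPM.

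*Itih5* had the largest SE of the 6 members in the non-EC model (0.27, against 0.14 to 0.20). *Chd4-ECko* libraries held 28.6, 18.3 and 12.7 TPM, those of *Brg1-ECko* held 34.2, 18.4 and 27.1 TPM and those of *Brg1/Chd4-ECdko* held 22.8, 29.6 and 27.8 TPM, against 19.0, 15.1 and 16.1 TPM in controls. Only the *Brg1/Chd4-ECdko* libraries lay wholly above the controls. The log2 difference in *Chd4-ECko* cells, 0.17 ± 0.27 (SE), changed to -0.12 without replicate 1 of *Chd4-ECko*. In each mutant, 5 of the 6 genes lay wholly above control in non-EC cells, where 15.8%, 21.9% and 16.0% of the 12223 genes tested did so. Nothing is read from these counts, since the family was picked in the same comparison.

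The hepatoblast markers moved in the same direction in the same libraries. Their sum was 21078, 21784 and 23495 TPM in control non-EC cells. It ran from 33133 to 43608 TPM in *Chd4-ECko* libraries, from 31839 to 46516 TPM in those of *Brg1-ECko* and from 27458 to 36450.3 TPM in those of *Brg1/Chd4-ECdko*, with means 1.66, 1.81 and 1.41 times control. Of the 16 markers, 13, 15 and 1 passed as higher (limma, adjusted p under 0.05) and none as lower, where 6.17%, 8.91% and 0.565% of all genes passed as higher and 3.31%, 2.76% and 0.0164% as lower. The median log2 difference of the 16 markers was 0.82, 0.94 and 0.53, against 0.0054, 0.020 and 0.014 over all genes tested. The part of this shift in the values of the family was not tested in non-EC cells. In *Brg1/Chd4-ECdko* 71 genes passed in all, and 0 to 14 did when any of the 6 compared libraries was left out, so single calls in that mutant rest on all 6 libraries. Erythroid markers overlapped between the groups, at 3438 to 10958 TPM in controls and 2010.3 to 11630 TPM in mutants. The mitochondrial share was wholly lower in *Brg1-ECko* non-EC libraries (3.04% to 5.51%) than in controls (6.17% to 7.69%). Mesenchymal markers were wholly higher in those of *Brg1/Chd4-ECdko* (125 to 154 TPM) than in controls (62.7 to 122 TPM). The part of these shifts was not tested either.

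Set among the 16 markers, *Ambp*, *Itih1*, *Itih2* and *Itih3* lay inside the markers' range in each mutant, whereas *Itih4* lay above all 16 markers in all 3 mutants. The family was chosen by the rise of *Itih4* in these comparisons, so nothing is read from the place of *Itih4*. In *Chd4-ECko* the markers ran from -0.47 to 1.07 on the log2 scale, and *Itih4* was at 1.44. In *Brg1-ECko* they ran from 0.22 to 1.12, with *Itih4* at 1.64, and in *Brg1/Chd4-ECdko* from 0.29 to 0.72, with *Itih4* at 1.17. This place was not particular to *Itih4*, as *Serping1*, a plasma protease inhibitor gene described below, also lay above all 16 markers in each mutant. *Itih5* lay inside the range too, above 1, 1 and 12 of the 16 markers in the 3 mutants. In *Chd4-ECko* and *Brg1-ECko* that 1 marker was *Apob*, at -0.47 and 0.22, each with an SE of 0.57. *Itih5*, at 0.17 and 0.60, lay below all the other markers there, the lowest of which were at 0.56 (*Fgb*) and 0.74 (*Afp*).

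**Figure D2:**
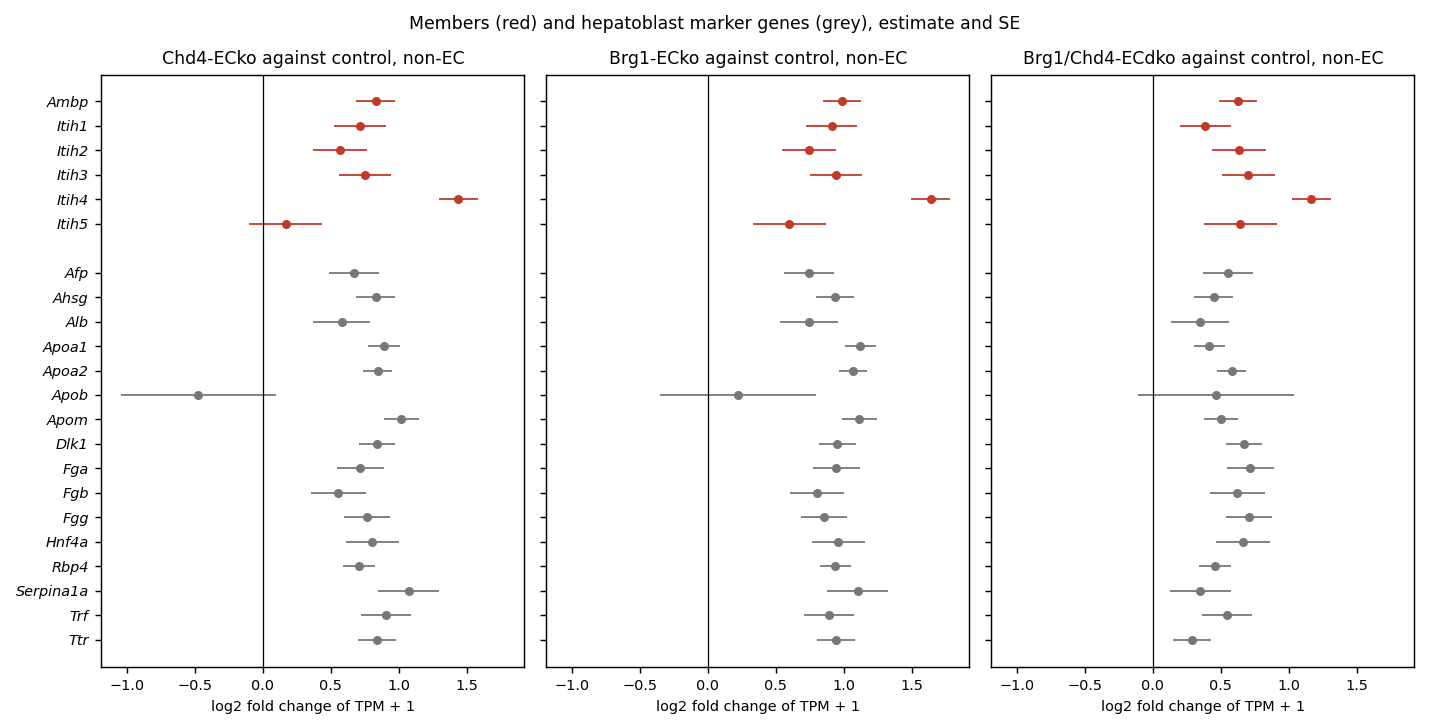
Log2 fold change of TPM + 1 against control in the non-EC fraction, with the SE, for the 6 family members in red and the 16 hepatoblast markers in grey, in a panel per mutant. *Itih4*, whose values here led to the choice of the family, lies to the right of every marker in each panel. The other 5 members lie within the markers' range, with *Itih5* below every marker but *Apob* in *Chd4-ECko* and *Brg1-ECko*.

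Levels were then expressed per 1000 TPM of hepatoblast markers in the same library. On this scale *Ambp* was nearly level, at 35.9 to 39.4 in control non-EC libraries, 39.9 to 44.2 in mutant ones, 35.4 to 41.1 in control LSECs and 37.2 to 45.5 in mutant LSECs. *Itih1* ranged over 1.36 to 2.27, *Itih2* over 22.3 to 35.3 and *Itih3* over 4.14 to 6.31 across all 24 libraries. *Itih5* ran from 0.683 to 0.902 in control non-EC libraries and from 0.383 to 0.655 in those of *Chd4-ECko*, wholly lower, and it overlapped with controls in the other 2 mutants. *Itih4* was at 0.716, 0.642 and 0.773 in control non-EC libraries (mean 0.710 ± 0.0657), and at means of 1.23 ± 0.262, 1.29 ± 0.133 and 1.19 ± 0.197 in the mutants. The lowest of the 9 mutant libraries, at 0.962, was above the highest control, so that the ratio of means was 1.73, 1.82 and 1.68. *Ambp* and *Itih4* both lay wholly above control in each mutant on this scale, *Ambp* by a ratio of 1.08 to 1.11, where 0.663%, 0.884% and 1.15% of the 12223 genes did so. With the larger marker sum of the mutants as divisor, 66.5%, 67.5% and 51.0% of genes lay wholly lower. Per *Alb* alone, or per markers without *Alb* and *Afp*, *Itih4* stayed wholly above control in each mutant. *Ambp* overlapped with control in *Chd4-ECko* under both divisors and in *Brg1-ECko* without *Alb* and *Afp*. As above, nothing is read from these non-EC counts.

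The LSEC libraries were not used to pick the family, and in them too the scaled level of *Itih4* was higher in every mutant library than in the controls. Per 1000 TPM of hepatoblast markers, control LSECs held 0.560, 0.464 and 0.547 of *Itih4*. *Chd4-ECko* LSECs held 1.08, 1.06 and 0.929, those of *Brg1-ECko* 1.09, 0.751 and 1.12, and those of *Brg1/Chd4-ECdko* 0.773, 1.25 and 1.09. All 9 mutant libraries were above all 3 controls, with ratios of means of 1.96, 1.89 and 1.99. Of the 13444 genes tested in LSECs, 5 (0.0372%) had all mutant libraries above all controls on this scale, namely *Itih4*, *Igfbp1*, *Onecut2*, *Foxh1* and *Rnase12*, the last at a mean of 0.551 TPM. Shares of higher genes on this scale depend on the marker sum itself, since a sum that is larger in the mutants lowers every scaled gene. In LSECs 378, 20 and 111 genes lay wholly higher and 48, 1616 and 437 wholly lower on it. In the separate comparisons, *Itih4* and *Itih5* lay wholly above control in *Chd4-ECko* (2.81% of genes did), *Itih4* alone in *Brg1-ECko* (0.149%), and *Itih2*, *Itih3* and *Itih4* in *Brg1/Chd4-ECdko* (0.826%). Per *Alb* alone, *Itih5*, *Itih2* and *Itih3* overlapped with control in these comparisons. Per markers without *Alb* and *Afp* they stayed wholly above control in them. With that divisor *Itih3* in *Brg1-ECko* and *Ambp* in *Brg1/Chd4-ECdko* lay wholly above control as well. *Itih4* lay wholly above control in each mutant under all 3 divisors. LSEC and non-EC libraries of equal number may come from the same embryo, so the fractions are not independent embryos.

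**Figure D3:**
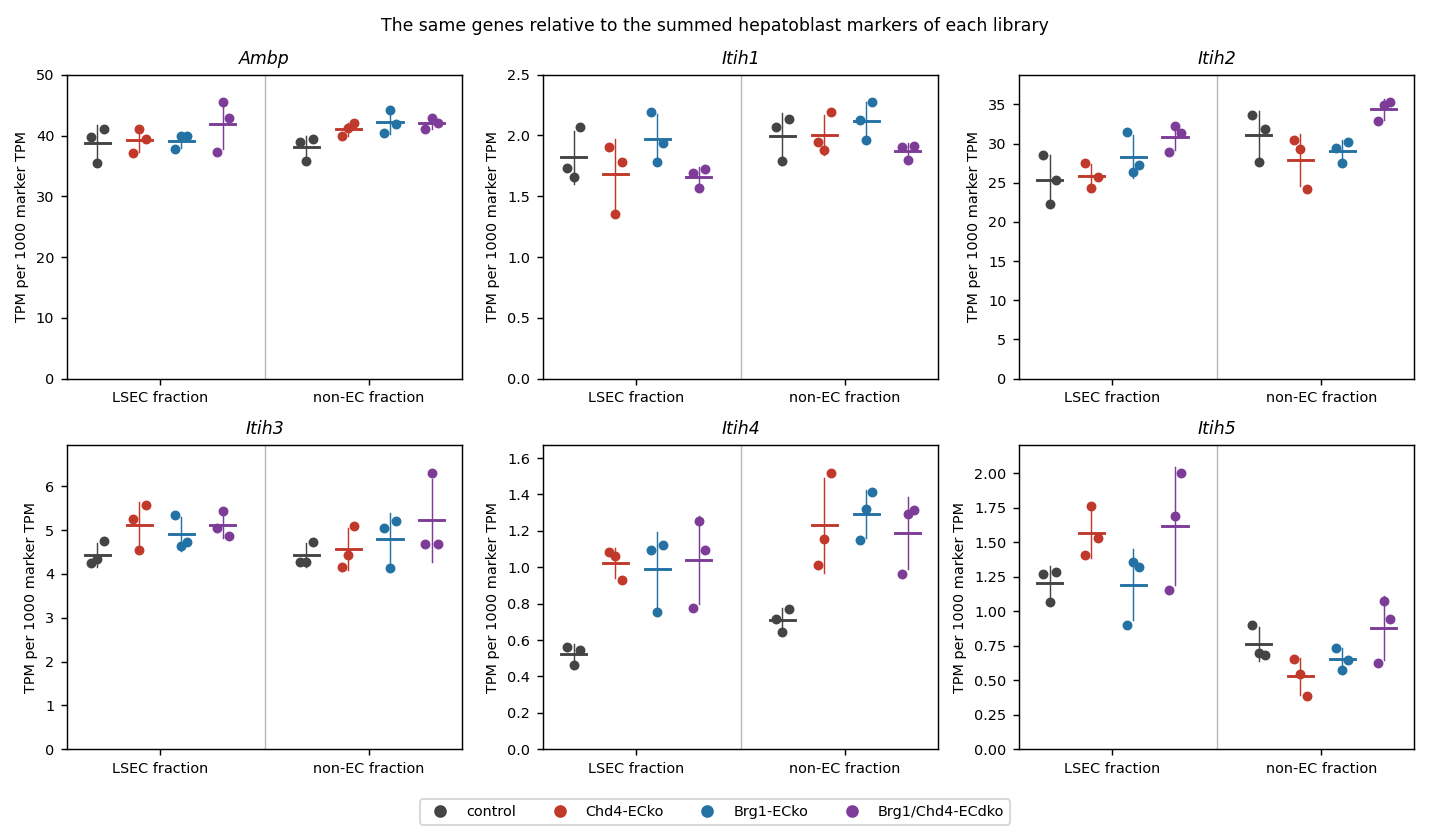
Level of each gene per 1000 TPM of summed hepatoblast markers, on linear axes that start at 0. Points are libraries, horizontal bars are means and vertical bars are the SD of 3. *Ambp* stays between 35.4 and 45.5 in all groups, and *Itih4* controls (0.464 to 0.773) lie below the mutants of the same fraction.

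Without that scaling, no member passed the test between mutant and control LSECs. *Itih4* was at 3.01, 4.04 and 2.32 TPM in control LSECs and at 7.45, 5.84 and 4.17 TPM in those of *Chd4-ECko*. It was at 37.7, 6.0 and 9.55 TPM in *Brg1-ECko* LSECs, where replicate 1 stood apart, and at 7.70, 12.0 and 6.75 TPM in those of *Brg1/Chd4-ECdko*. The mutant and control groups did not overlap in any of the 3 comparisons. The log2 differences were 0.72 ± 0.46 (SE; adjusted p = 1.00), 1.80 ± 0.46 (adjusted p = 0.250) and 1.24 ± 0.46 (adjusted p = 0.299), with 95% intervals of -0.27 to 1.71, 0.81 to 2.79 and 0.25 to 2.22. The median over all genes tested was 0.0073, 0.081 and 0.16. Genes that passed made up 0.707%, 0.0223% and 0.870% of the 13444 tested. At an unadjusted p under 0.05, 0, 6 and 2 of the 6 members were higher, where 6.49%, 9.68% and 12.1% of all genes lay under this p in either direction. All 16 hepatoblast markers lay under it as well in *Brg1-ECko* LSECs, with a median log2 difference of 1.16, against -0.074 and 0.48 in *Chd4-ECko* and *Brg1/Chd4-ECdko* LSECs. In a model of the 2 compared groups alone, *Itih4* (adjusted p = 0.0101) and *Itih5* (adjusted p = 0.0455) passed in *Brg1/Chd4-ECdko* LSECs, where 313 of the 13444 genes did so.

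The other members were less far from control in LSECs. In *Chd4-ECko* LSECs, *Itih5* (0.26) and *Itih3* (0.12) lay above all 16 hepatoblast markers on the log2 scale, the highest of which was at 0.084, without passing the test. In the same LSECs, *Ambp* was at 256, 226 and 177 TPM and *Itih2* at 189, 133 and 115 TPM, within reach of controls at 175 to 308 and 108 to 194 TPM. In *Brg1-ECko* LSECs, replicate 1 held 1301 TPM of *Ambp* and 1083 TPM of *Itih2*, and the other 2 libraries held 319 and 339 TPM and 210.3 and 232 TPM. Without that replicate the *Brg1-ECko* difference changed from 1.80 to 1.08 for *Itih4*, from 1.20 to 0.54 for *Ambp* and from 1.05 to 0.58 for *Itih5* on the log2 scale, and the *Itih4* estimate had an adjusted p of 0.338. The members whose TPM lay wholly above control numbered 1, 4 and 2 of 6, where 8.70%, 10.9% and 20.8% of genes did so.

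With the hepatoblast sum of each library as a covariate, a model added after the values had been seen, the *Itih4* differences in LSECs were 0.79 ± 0.20 (adjusted p = 0.0633), 0.67 ± 0.25 (adjusted p = 0.646) and 0.73 ± 0.21 (adjusted p = 0.0972). None passed the threshold. In the same model *Ambp* was at 0.013, 0.10 and 0.15, with SEs of 0.12 to 0.15, and the largest difference of another member was 0.49 ± 0.17 for *Itih5* in *Brg1/Chd4-ECdko*.

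**Figure D4:**
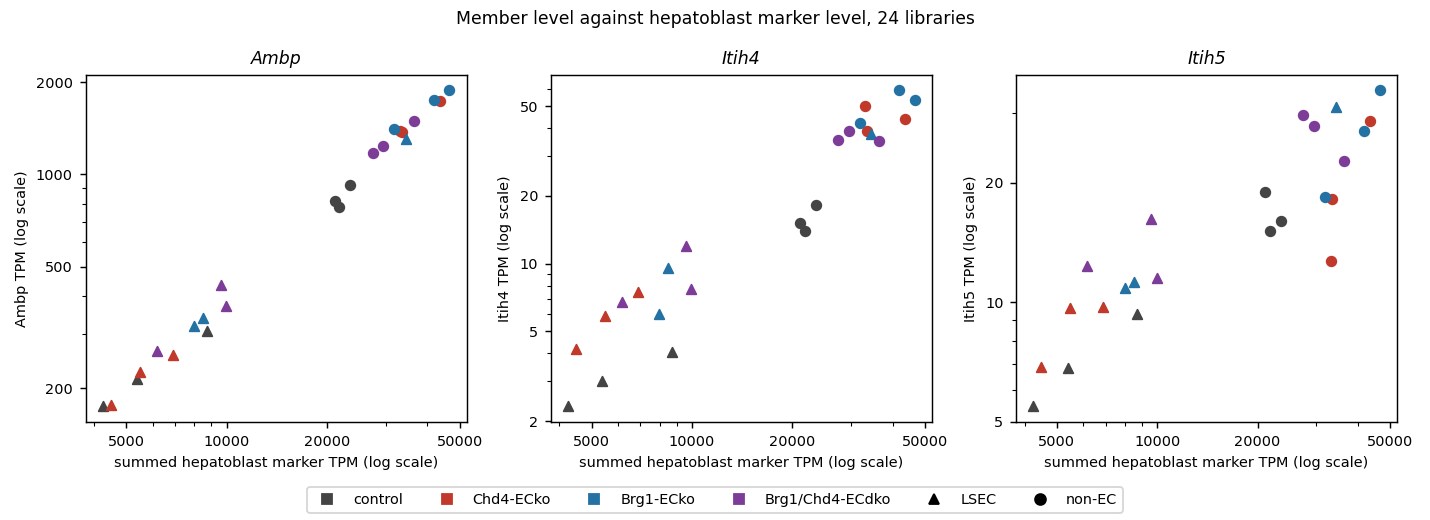
TPM of *Ambp*, *Itih4* and *Itih5* against the summed hepatoblast marker TPM of the same library, both on log axes, for 24 libraries. Triangles are LSEC and circles non-EC libraries, coloured by genotype. *Ambp* points fall along a line, the control points of *Itih4* in black lie lowest within each fraction, and *Itih5* points scatter most in the non-EC fraction.

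The 3 mutants were compared with each other in non-EC cells, in pairs that hold no control. No member passed in any pair, and neither did any of the 12223 genes tested (limma), although 2668 had an unadjusted p under 0.05 between *Brg1/Chd4-ECdko* and *Chd4-ECko*, 1558 between *Brg1/Chd4-ECdko* and *Brg1-ECko*, and 354 between *Chd4-ECko* and *Brg1-ECko*. *Itih4* was lower in *Brg1/Chd4-ECdko* than in *Brg1-ECko* in every library, with a log2 difference of -0.47 (95% interval -0.79 to -0.16, adjusted p = 0.300), where 14.6% of genes lay wholly lower. The same comparison gave -0.52 for *Itih1* (-0.94 to -0.11, adjusted p = 0.333) and -0.36 for *Ambp* (-0.67 to -0.05, adjusted p = 0.353). Between *Brg1/Chd4-ECdko* and *Chd4-ECko*, *Itih4* differed by -0.27 (-0.59 to 0.05) and *Itih5* by 0.48 (-0.12 to 1.07). Between *Chd4-ECko* and *Brg1-ECko* the *Itih4* difference was -0.20 (-0.52 to 0.12). Replicate 1 of *Chd4-ECko* mattered for these pairs. Without it 3943 genes passed between *Brg1/Chd4-ECdko* and *Chd4-ECko*, with *Itih5* among them (0.76, adjusted p = 0.0307).

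The balance of heavy chains to the bikunin precursor was also given per library. The sum of *Itih1*, *Itih2* and *Itih3* over *Ambp* was 1.03, 0.940 and 0.983 in control non-EC cells. It was 0.915, 0.864 and 0.749 in those of *Chd4-ECko*, 0.905, 0.760 and 0.899 in those of *Brg1-ECko* and 0.960, 1.00 and 0.996 in those of *Brg1/Chd4-ECdko*. The *Chd4-ECko* and *Brg1-ECko* libraries were all below the controls, and the *Brg1/Chd4-ECdko* libraries overlapped with them. In LSECs the ratio had means of 0.816 in controls and 0.835 to 0.901 in mutants.

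Across the 12 non-EC libraries, *Ambp* followed the hepatoblast sum most closely (Pearson's r = 0.986 on the log2 scale), then *Itih1* (0.968), *Itih3* (0.919), *Itih2* (0.913), *Itih4* (0.891) and *Itih5* (0.565). In the 12 LSEC libraries these values lay between 0.908 and 0.993, and without replicate 1 of *Brg1-ECko* they lay between 0.734 (*Itih4*) and 0.973 (*Ambp*). These correlations are descriptions, since libraries share genotypes and every TPM shares the library total. The genes most like each member over the 12 non-EC libraries, among 9434 genes with a mean of at least 5 TPM, were mostly plasma protein genes of the liver. *Itih4* was most like *Apof*, which encodes apolipoprotein F (r = 0.985), *Pla2g12b* (0.981) and *F7*, coagulation factor VII (0.981). *Apof* differed from control by 0.91, 0.99 and 0.63 on the log2 scale in the 3 mutants, less than *Itih4* in each. *Ambp* was most like *Serpinc1* (antithrombin), *Apoe* and *Gstm1*, *Itih2* most like *Gpc3*, *St6gal1* and *Igf2*, *Itih3* most like *Fgg*, *Col18a1* and *Dnajc12*, *Itih1* most like *Furin*, *Gsn* and *Kif12*, and *Itih5* most like *Greb1* and *Afdn*.

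Proteases of the pathway were next compared in non-EC cells. Of 14 measured genes for proteases that cut heavy chains, are inhibited by bikunin or process propeptides, 7, 6 and 0 passed as higher, with none lower, where 6.17%, 8.91% and 0.565% of all genes did. The list's median log2 difference was 0.58, 0.51 and 0.31, below the 0.82, 0.94 and 0.53 of the hepatoblast markers, and its lowest members were at -0.78, -0.51 and -0.85. *Plg*, the plasmin precursor, differed by 0.76 (adjusted p = 0.0263), 0.88 (adjusted p = 0.00870) and 0.56 (adjusted p = 0.173) on the log2 scale, from a control mean of 354 TPM. *F2* (prothrombin) rose by 0.81 and *F10* (factor X) by 0.95 in *Chd4-ECko*. *Furin*, which cuts propeptides, rose by 0.65 and 0.75 in *Chd4-ECko* and *Brg1-ECko*. *Klkb1*, the plasma kallikrein that cuts ITIH4, was low and did not pass, at 2.97 to 4.95 TPM in control libraries and 2.19 to 9.18 TPM in mutant ones.

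Other inhibitors were also compared in non-EC cells. Of 18 measured Kunitz-type and other plasma protease inhibitors, 9, 8 and 1 passed as higher, where 6.17%, 8.91% and 0.565% of all genes did. The list's median log2 difference was 0.83, 0.96 and 0.37, beside 0.82, 0.94 and 0.53 for the hepatoblast markers, and its lowest members were at -0.72, -0.44 and -0.83. The list shares *Serpina1a* and *Ahsg* with the hepatoblast markers. *Tfpi*, tissue factor pathway inhibitor, which endothelial cells also make, was the 1 gene to pass as lower, in *Chd4-ECko* (-0.72, adjusted p = 0.0499). *Serping1*, the C1 and kallikrein inhibitor, passed in all 3 mutants with 1.08, 1.28 and 0.86. *Serpinf2*, the plasmin inhibitor α2-antiplasmin, rose by 0.93 and 1.04 in *Chd4-ECko* and *Brg1-ECko*. Of 9 measured lipocalins and heme or retinol binding proteins, 4, 5 and 1 passed as higher, with medians of 0.58, 0.75 and 0.33. This list shares *Alb*, *Apom* and *Rbp4* with the hepatoblast markers. *Hpx* (hemopexin) passed in all 3, with 0.92, 1.13 and 0.67.

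Acute phase genes, the class to which *Itih4* is assigned, passed in part in non-EC cells, and only as higher. Of 23 measured, 6, 10 and 1 passed as higher, where 6.17%, 8.91% and 0.565% of all genes did. The list's medians were 0.40, 0.61 and 0.34, below the 0.82, 0.94 and 0.53 of the hepatoblast markers. The fibrinogen genes *Fga*, *Fgb* and *Fgg* are also hepatoblast markers. *C3* (0.94 and 1.15) and *Cfb* (0.84 and 1.07), both complement genes, passed in *Chd4-ECko* and *Brg1-ECko* at smaller log2 differences than *Itih4*. In LSECs, *Cebpb*, a transcription factor of the acute phase response, passed in *Chd4-ECko* (0.96, adjusted p = 0.00337) and *Brg1/Chd4-ECdko* (0.81, adjusted p = 0.0105). It was the only gene of this list to do so.

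Among the hyaluronan partners, *Tnfaip6*, which encodes TSG-6, was at or below 1.72 TPM in every library, at 0.310 to 1.72 TPM in LSECs and 0 to 0.306 TPM in non-EC cells, and did not reach the filter for a test in non-EC cells. *Ptx3*, a pentraxin that helps to anchor heavy chains in hyaluronan matrix, was at 2.52 to 6.34 TPM in LSECs and passed in no mutant. *Hapln1*, a link protein of hyaluronan and proteoglycans, passed in *Chd4-ECko* and *Brg1/Chd4-ECdko* LSECs. It was at 9.94, 8.42 and 7.80 TPM in control LSECs, 20.8, 21.5 and 18.5 TPM in *Chd4-ECko* (1.13, adjusted p = 0.0397) and 19.9, 35.0 and 33.0 TPM in *Brg1/Chd4-ECdko* (1.61, adjusted p = 0.00527). In non-EC cells it was at 0.210 to 0.540 TPM in controls, 2.71 to 6.33 TPM in *Brg1-ECko* (1.85) and 3.82 to 15.1 TPM in *Brg1/Chd4-ECdko* (2.48). There it met the filter only through the mutants in which it is high, so these non-EC values are a description without a test. *Hyal2*, a hyaluronidase, rose by 0.55 and 0.59 in non-EC cells of *Chd4-ECko* and *Brg1-ECko*. Of the 8 hyaluronan genes measured in non-EC cells, 1, 3 and 1 passed, all as higher, where 6.17%, 8.91% and 0.565% of all genes did. *Hapln1* is among the 3 in *Brg1-ECko* and is the 1 in *Brg1/Chd4-ECdko*, so these counts are favoured by the filter. The list's medians were 0.08, 0.51 and 0.35.

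Genes that build the chondroitin sulfate chain on which heavy chains are carried were compared as well. None of the 16 measured passed as higher in any mutant's non-EC cells, where 6.17%, 8.91% and 0.565% of all genes did. For a list of 16 genes that count is near these shares, so nothing is read from it. In *Brg1-ECko*, *Chsy1* (-0.59) and *Chst11* (-0.62) passed as lower, where 2.76% of all genes did. The list's median log2 difference was -0.07, 0.09 and -0.07, and its highest members were at 0.81, 0.90 and 0.20. In LSECs no gene of this list, of the protease, inhibitor or lipocalin lists or of the hepatoblast markers passed in any mutant (limma). Of all genes tested there, 0.707%, 0.0223% and 0.870% passed.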

How the data were processed

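Libraries of poly-A RNA from 3 embryonic livers per genotype were compared in each of 2 cell fractions. After removal of repeated guanines, the authors mapped reads to the mouse genome GRCm39 with CLC Genomics Workbench, and the values they deposited are gene-level TPM. Because TPM keep no depth, no counting error could be given. The 8 deposited columns of the authors' group means matched the means of the libraries and were not used. No library column lay outside the design.

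The moderated test of limma (3.58.1, under R 4.3.3) was applied to log2(TPM + 1) with a variance trend, in a model per fraction (all 24 libraries for LSEC against non-EC). Genes entered a model if 3 or more of its libraries reached 1 TPM. P-values are two-sided and were adjusted over all genes by the Benjamini-Hochberg method, and a gene passed at an adjusted p under 0.05. The pseudocount of 1 TPM understates the change of low genes. All 6 members passed the filter in every model. The members, gene lists and tests were chosen with earlier results of these data known. Named list genes were those that passed, up to the 3 with the smallest p per list and comparison, besides *Tnfaip6*, *Ptx3*, *Plg*, *Klkb1* and *Furin*. *Igfbp1*, *Onecut2*, *Foxh1*, *Rnase12* and *Tfpi* were named after their values were seen. The model was tested on simulated data. Alternatives were a pseudocount of 0.1 TPM, other filters, quantile normalization, TPM without mitochondrial genes, no trend, a replicate block, the 2 compared groups alone, a log2 fold threshold of 1 and each library left out.

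LSEC and non-EC libraries that share a genotype and a number deviated together from their group means (12 of 12 pairs with a correlation over 0.1, mean 0.270), which pairs the fractions by the numbers in the labels. Sequences came from RefSeq promoter tables. A gene among those most like *Itih5* is not reported here.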

Additional observations from a re-analysis of the deposited data

How the results depend on the processing

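The alternatives left the members' direction and side of the threshold in place in most cases. Of the tested log2 fold changes of members, 391 of the values under other settings and 236 of those with a library left out kept both. With the hepatoblast covariate, added after the data were seen, *Ambp* (0.013) and *Itih2* (0.035) in *Chd4-ECko* LSECs and *Itih1* in *Brg1/Chd4-ECdko* LSECs (-0.16) changed sign. With the 2 compared groups alone, 2 members passed in *Brg1/Chd4-ECdko* LSECs. Leaving out a library, the *Chd4-ECko* LSEC differences ran from -0.24 to 0.17 for *Ambp*, from -0.41 to 0.025 for *Itih1*, from -0.27 to 0.15 for *Itih2* and from -0.053 to 0.38 for *Itih3*. Those between *Brg1/Chd4-ECdko* and *Chd4-ECko* non-EC cells ran from -0.10 to 0.26 for *Itih2* and from -0.13 to 0.054 for *Itih3*, with 0 to 1 member passing, and those between *Brg1/Chd4-ECdko* and *Brg1-ECko* from -0.31 to 0.017 for *Itih2* and from -0.19 to 0.24 for *Itih5*. That of *Itih5* in *Chd4-ECko* non-EC cells ran from -0.12 to 0.44. All reversals were of differences that did not pass or were not tested, and the cause was not tested.

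Counts of passing genes moved more. In *Chd4-ECko* LSECs 95 genes became 148 with the 2 groups alone and 218 with the covariate (29 without *Chd4-ECko* replicate 3 to 191 without its replicate 1). In *Brg1-ECko* LSECs 3 became 0 without a filter, without mitochondrial genes, without the trend or with the 2 groups alone, 5 with quantile normalization and 7 with the covariate (0 to 8). In *Brg1/Chd4-ECdko* LSECs 117 became 76 with the fold threshold, 74 with quantile normalization, 313 with the 2 groups alone and 253 with the covariate (24 without *Brg1/Chd4-ECdko* replicate 3 to 105). In non-EC cells, 1159 in *Chd4-ECko* became 108 with the fold threshold, 1910 with quantile normalization and 165 with the 2 groups alone (359 without its replicate 3 to 4592 without its replicate 1), 1426 in *Brg1-ECko* became 167 with the fold threshold (568 without its replicate 1 to 1233), and 71 in *Brg1/Chd4-ECdko* became 14 with the fold threshold, 36 without a filter and 27 without mitochondrial genes (0 without control replicate 1 to 14). Between mutants, 0 became 4 without a filter and 1 with the 2 groups alone for *Brg1/Chd4-ECdko* against *Chd4-ECko* (0 to 3943), 1 without a filter against *Brg1-ECko* (0 to 0), and 2 without a filter for *Chd4-ECko* against *Brg1-ECko* (0 to 9). Of the ratios to hepatoblast markers, the other divisors (*Alb* alone, or the markers without *Alb* and *Afp*) moved 23 of 72 by more than the spread of replicates. Between fractions 9241 became 4498 with the fold threshold (8469 to 8729). The genes most like each member shared at most 1 of 3 with Spearman's rho.

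Within a fraction, same-numbered libraries of different genotypes did not all deviate together (13 of 18 pairs in LSECs and 10 of 18 in non-EC cells had a correlation over 0.1), so the numbers were not taken as pairs. With a replicate block, 11 genes passed in *Brg1-ECko* LSECs, 301 in *Brg1/Chd4-ECdko* non-EC cells and 1 between *Brg1/Chd4-ECdko* and *Brg1-ECko*, and no member's call changed. Of the lists in *Brg1/Chd4-ECdko* non-EC cells, 6 of 16 hepatoblast markers and 7 of 23 acute phase genes passed with the block.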
